A study of Caenorhabditis elegans with 16 samples.

Results

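The X chromosome of *Caenorhabditis elegans* was described through the 43062 DNA pieces between neighbouring GATC sites (GATC fragments) that carry X as their chromosome name, out of 269057 fragments in the genome. The remaining fragments comprised 225973 on autosomes I to V and 22 on the mitochondrial genome. RPB-6 occupancy was profiled by Targeted DamID (TaDa), in which a DNA adenine methyltransferase (Dam) fused to the RNA polymerase subunit RPB-6 marks the GATC sites it visits, and methylated fragments are amplified and sequenced from whole-animal DNA. Each score was a normalised log2(dam:rpb-6/dam:NLS-GFP) ratio, with a control Dam fused to nuclear GFP in the same tissue as the denominator, and is on the log2 scale throughout.

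The seam cell strains carried srf-3i1 (an intronic enhancer of srf-3) driving either dam:rpb-6 or dam:NLS-GFP, and the hypodermis strains carried dpy-7syn1 (an altered form of the dpy-7 promoter, itself an X gene) driving the same fusions. Every transgene was a single-copy insertion, and expression was kept very low by placing Dam behind an upstream reading frame. Animals were grown at 20 °C on dam-/dcm- bacteria and collected 24 hours after seeding at the L2 stage or 48 hours after seeding at the L4 stage, with the L2 and L4 collections of a replicate taken from the same population. Every pairing of cell type with stage (4 groups) had 2 dam:rpb-6 samples, giving 8 profiles over 4 populations. Cell type here means where the promoter is active, since no cells were isolated, and the number of reads behind a single score was unknown because the profiles hold no read counts. The seam cell L4 profile of replicate 1 against control 1 was left out because it followed the ratio of the 2 controls (r = 0.996 over X fragments) and was inversely related to the same replicate against control 2 (r = -0.37).

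X is the sex chromosome of this species, present as a pair in hermaphrodites and singly in males. A dosage compensation complex related to condensin binds along X in hermaphrodites and lowers transcription from both copies, and X is known for holding few germline genes and many genes of somatic tissues. RPB-6 is a subunit shared by RNA polymerases I, II and III, so genes for transfer RNAs, which polymerase III transcribes, are within reach of the fusion along with protein-coding genes.

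The strongest short X fragments show what the assay records. They are given from the WBcel235 reference genome, plus strand, with the flanking GATC sites in capitals, and were the X fragments of 60 to 200 bases outside untranslated regions with the highest lower replicate in a group. In the central 40 bases, each occurs once in the genome.

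deg-1 intron, X:7774159-7774227: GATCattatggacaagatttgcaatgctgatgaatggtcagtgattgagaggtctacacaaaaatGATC

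K01A12.3, X:8624605-8624675: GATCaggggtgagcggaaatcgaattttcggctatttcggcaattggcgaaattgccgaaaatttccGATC

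vha-12, X:4191597-4191793: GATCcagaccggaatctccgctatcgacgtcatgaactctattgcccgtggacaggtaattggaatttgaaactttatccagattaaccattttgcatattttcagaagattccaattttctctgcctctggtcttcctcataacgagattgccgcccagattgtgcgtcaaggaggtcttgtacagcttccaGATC

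sams-1, X:11966495-11966575: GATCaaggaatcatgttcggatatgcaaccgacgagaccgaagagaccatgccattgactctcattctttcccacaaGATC

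The fragment within deg-1 (a degenerin-type channel gene) scored 5.37 and 5.42 in the seam L2 replicates, and its mean was 6.55 in seam L4, 5.16 in hypodermis L2 and 3.59 in hypodermis L4. The fragment in K01A12.3 reached 7.96 and 5.84 in hypodermis L2, with a mean of 3.81 in seam L2. The fragment in vha-12, which encodes a subunit of the vacuolar proton pump, scored 5.59 and 5.42 in hypodermis L2 and had a mean of 2.20 in seam L2. The fragment in sams-1, the gene of an S-adenosylmethionine synthetase, scored 6.23 and 5.35 in hypodermis L4. All of these were far above the chromosome as a whole, but a single fragment need not represent its gene: deg-1 as a gene had occupancy of 0.34 and 0.29 in seam L2.

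The fifth sequence lies over a tRNA gene. It had the highest minimum over the 8 samples among the shorter fragments, outside untranslated regions, that touch a tRNA gene on X. The bases of the tRNA-Cys gene (X:8638620-8638691, minus strand) are in capitals.

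tRNA-Cys fragment, X:8638653-8638816: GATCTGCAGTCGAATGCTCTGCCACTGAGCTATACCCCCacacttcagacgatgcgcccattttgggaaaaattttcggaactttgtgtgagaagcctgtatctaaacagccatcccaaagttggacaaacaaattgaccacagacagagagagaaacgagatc

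Its scores were 4.77 and 5.70 in seam L2, 6.63 and 7.50 in seam L4, 5.11 and 5.10 in hypodermis L2, and 4.63 and 5.79 in hypodermis L4. This fragment was thus among the strongest on X in both cell types.

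X carried the lowest mean score of the 6 chromosomes in 8 of 8 samples. The mean X score was -0.021 and 0.097 in the seam L2 replicates, -0.047 and -0.064 in seam L4, 0.017 and 0.022 in hypodermis L2, and 0.072 and -0.175 in hypodermis L4. The samples differed more in their overall level than X differed from autosomes, so the comparison was made within each sample. X minus autosomes was -0.058 and -0.061 in seam L2, -0.132 and -0.108 in seam L4, -0.111 and -0.117 in hypodermis L2, and -0.084 and -0.144 in hypodermis L4. The difference averaged -0.102 ± 0.032 (SD, n = 8 samples), with an exact two-sided sign-flip p of 0.00781, the smallest this test can give, and 0.0109 after Benjamini-Hochberg adjustment over 7 chromosome-level tests. The nearest autosome was V, from which X differed by -0.049 on average (-0.096 to -0.002 across samples), and the farthest was III, at -0.147. With the 4 populations as units the difference was the same size, and an exact sign-flip test can then reach no less than p = 0.125. With medians in place of means it shrank to -0.0087 (exact p = 0.25).

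**Figure D1:**
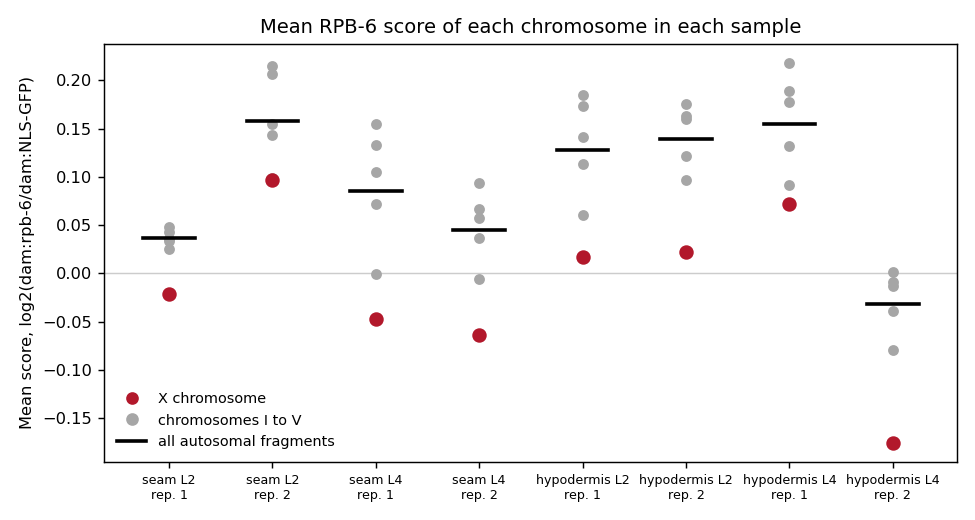
Mean score (log2 ratio, y axis) of each chromosome in each of the 8 dam:rpb-6 samples (x axis); red points are X, grey points chromosomes I to V, and black bars the mean over all autosomal fragments. The red point is the lowest in all 8 samples, from -0.175 in hypodermis L4 replicate 2 to 0.097 in seam L2 replicate 2.

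The shortfall on X showed at both ends of the distribution of scores. Fragments at or below -1 made up 8.23% ± 2.54 of X against 6.09% ± 1.80 of autosomes in seam L2 (SD, n = 2), 10.9% ± 1.34 against 7.32% ± 0.82 in seam L4, 8.78% ± 0.57 against 5.88% ± 0.94 in hypodermis L2, and 7.84% ± 2.99 against 4.99% ± 1.91 in hypodermis L4. Their share on X was 1.33 to 1.61 times the autosomal one across samples, and it was the highest of any chromosome in 8 of 8. Fragments at or above 1 were scarcer on X in 8 of 8 samples, at 0.735 to 0.970 times the autosomal share, yet X had the lowest such share of the 6 chromosomes in only 1. Scores of exactly 0 were fewer on X, with a difference of -7.21 percentage points ± 0.72 (SD, n = 8 samples, exact sign-flip p = 0.00781), and X had the lowest share of them in 8 of 8. The seam L2 profile of replicate 2 was written with at most 4 significant digits and the other 7 with up to 15. Whether rounding turned small scores of that profile into 0 was not tested. Its own difference was -7.20 percentage points, within the range of the 8 samples (-8.14 to -6.03). The SD of X scores exceeded the autosomal SD by 0.037 ± 0.021 on the log2 scale (higher in 8 of 8, exact sign-flip p = 0.00781). That difference vanished when the scores at 0 were left out (-0.0044, exact p = 0.41).

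X fragments differ from autosomal ones in make-up. Their median length was 249 bp against 202 bp, mean GC content 37.3% against 38.3%, and 62.0% of X fragments had their midpoint in a protein-coding gene against 69.7%. The X shortfall was therefore also read within classes, which were chosen after the data were seen. X was below the autosomes in 8 of 8 samples among exonic fragments (-0.087 on average), intronic fragments (-0.097) and intergenic fragments (-0.067). It was also below them in 8 of 8 samples in each of 5 classes of GC content, with averages from -0.128 to -0.061, and in each length class under 1000 bp, with averages from -0.139 to -0.072. In fragments of 1000 bp or more the average was -0.016, with 7 of 8 samples below 0 (exact p = 0.25). Leaving out the 10 kb windows with a score of at least 1 in both replicates gave -0.088 (exact sign-flip p = 0.00781).

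With stages or cell types pooled, neither cell type nor stage shifted the X level beyond the spread between samples. X minus autosomes averaged -0.060 ± 0.002 (SD, n = 2) in seam L2, -0.120 ± 0.017 in seam L4, -0.114 ± 0.004 in hypodermis L2 and -0.114 ± 0.042 in hypodermis L4. Seam cells stood 0.024 above hypodermis (exact permutation of 4 against 4 samples, p = 0.26) and L4 stood at -0.030 relative to L2 (exact permutation p = 0.23), where 0.0286 is the smallest p the design allows. The hypodermis L4 replicates (-0.084 and -0.144) differed by more than the stages did with cell types pooled. The seam L2 replicates (-0.058 and -0.061) had the smallest shortfalls of all samples, and seam L2 on its own was not tested. These p-values measure the spread between collections, and L2 and L4 collections of a population are not independent.

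Within X, RPB-6 favoured genes. Genic fragments scored above intergenic ones by 0.051 and 0.213 in the seam L2 replicates, 0.206 and 0.149 in seam L4, 0.215 and 0.181 in hypodermis L2, and 0.215 and 0.158 in hypodermis L4. The average was 0.174 ± 0.056 (SD, n = 8 samples, exact sign-flip p = 0.00781), and it was 0.0086 with medians (exact p = 0.13). The gain in genes was smaller on X than on autosomes in 8 of 8 samples, by -0.031 ± 0.017 (exact sign-flip p = 0.00781). Medians turned this last difference to 0.0042 (exact p = 0.13). Mean X scores ran from exonic (0.146 ± 0.006 in hypodermis L2, SD, n = 2) through intronic (0.038 ± 0.005) to intergenic fragments (-0.103 ± 0.018), and the same order held in the other 3 groups.

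**Figure D2:**
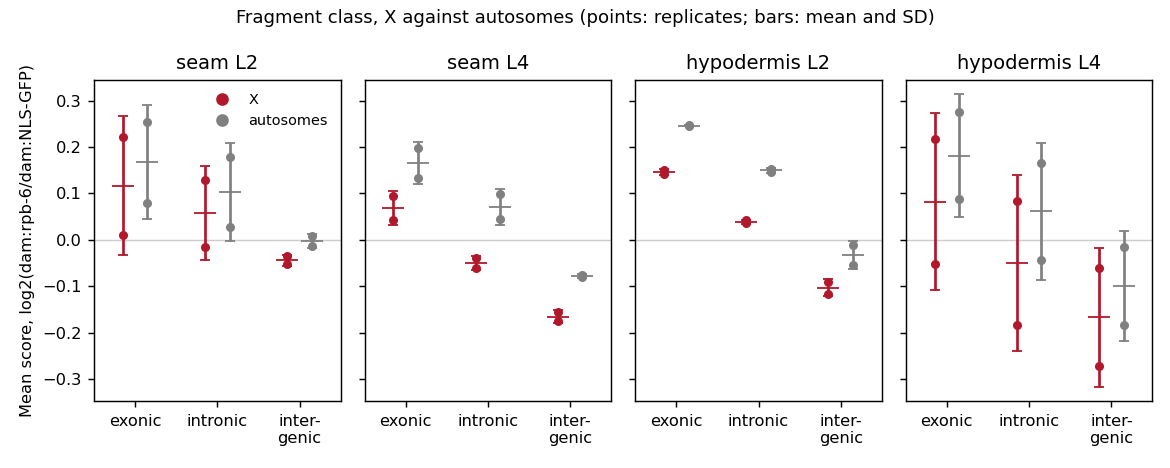
Mean score (log2 ratio, y axis) of exonic, intronic and intergenic fragments (x axis) on X (red) and autosomes (grey) in each group; points are the 2 replicates, and bars the mean and SD. In every group the red mean lies below the grey mean of the same class, as in hypodermis L2 exonic fragments (0.146 against 0.246).

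In X genes of at least 2 kb the signal was lowest in the 5′ part of the gene. Of 3 equal parts of each gene, the part at the 3′ end exceeded that at the 5′ end by 0.082 on average (0.048 to 0.113 across samples), against 0.071 on autosomes. The middle and 3′ parts were close at L4, where seam cells had 0.040 and 0.036 and hypodermis 0.040 and 0.041, against -0.037 and -0.051 for the 5′ part. The kilobase upstream of these genes was lower on X than on autosomes by 0.092 on average, with 7 of 8 samples in that direction. This reading by position was added after the data were seen.

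The level varied along X and was low at the right end. In 20 bins of equal length the group mean ran from -0.166 in bin 20 to 0.023 in bin 10 in seam L4, and from -0.098 in bin 19 to 0.124 in bin 11 in hypodermis L2. The lowest bin was bin 20 in seam L2, seam L4 and hypodermis L4, at the right end of the chromosome. At the left end, bin 1 stood at 0.031 in seam L2, -0.022 in seam L4, 0.032 in hypodermis L2 and -0.033 in hypodermis L4. All 20 bins were below the autosomal mean of the group in seam L4 and in both hypodermis groups, and 18 were in seam L2.

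**Figure D3:**
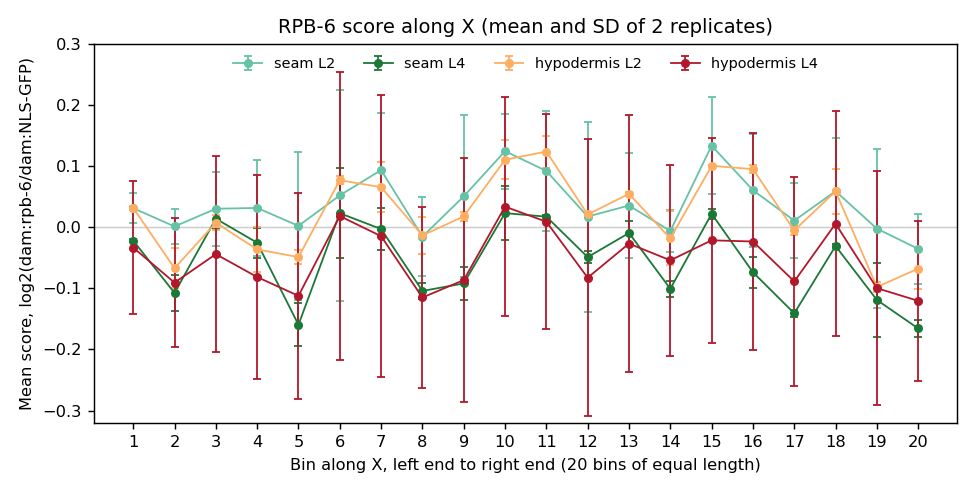
Mean score (log2 ratio, y axis) in 20 equal bins from the left to the right end of X (x axis), with one line per group and bars for the SD of 2 replicates. The bars of hypodermis L4 span most of the range of the other groups, and bin 20 is the lowest in 3 of the 4 groups.

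Fragments over tRNA genes departed from the rest of the chromosome. X holds 276 of the annotated nuclear tRNA genes (45.1%), against 13.7% of protein-coding genes. The 307 X fragments that touch one had a mean score of 0.91 and 1.25 in the seam L2 replicates, 1.39 and 1.13 in seam L4, 1.37 and 1.09 in hypodermis L2, and 1.52 and 1.18 in hypodermis L4. Every sample thus placed tRNA genes far above its X mean, by 0.93 to 1.45. They were chosen for description after a tRNA gene appeared among the strongest fragments, so no test is given. The 388 fragments over autosomal tRNA genes averaged 0.92, and X was the higher by 0.31 (0.21 to 0.38, 8 of 8 samples), opposite to the direction of the chromosome as a whole. Without all tRNA fragments, X minus autosomes was -0.109 (-0.152 to -0.064).

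Among the X tRNA fragments, 65 (21.2%) scored at least 1 in all 8 samples, against 0.669% of all X fragments, and 2 were at or below 0 throughout. Those inside protein-coding genes averaged 1.50 (126 fragments) and those outside 1.04 (181 fragments). By the amino acid carried, tRNA-Cys fragments averaged 3.81, tRNA-Trp 2.56 and tRNA-Val 2.38, whereas tRNA-Leu averaged 0.41 and tRNA-Glu 0.45. tRNA-Arg and tRNA-Glu had the most genes on X, with 27 and 23. Identical copies limit these values, since reads from one may be placed on another: 219 of the 276 X genes had at least 1 identical copy. The 57 without any averaged 0.96 over their fragments (0.79 to 1.17 across samples), and the 219 with a copy averaged 1.35 (0.98 to 1.66). Autosomal tRNA genes were not split in this way, so the X excess was not measured for genes without copies.

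**Figure D4:**
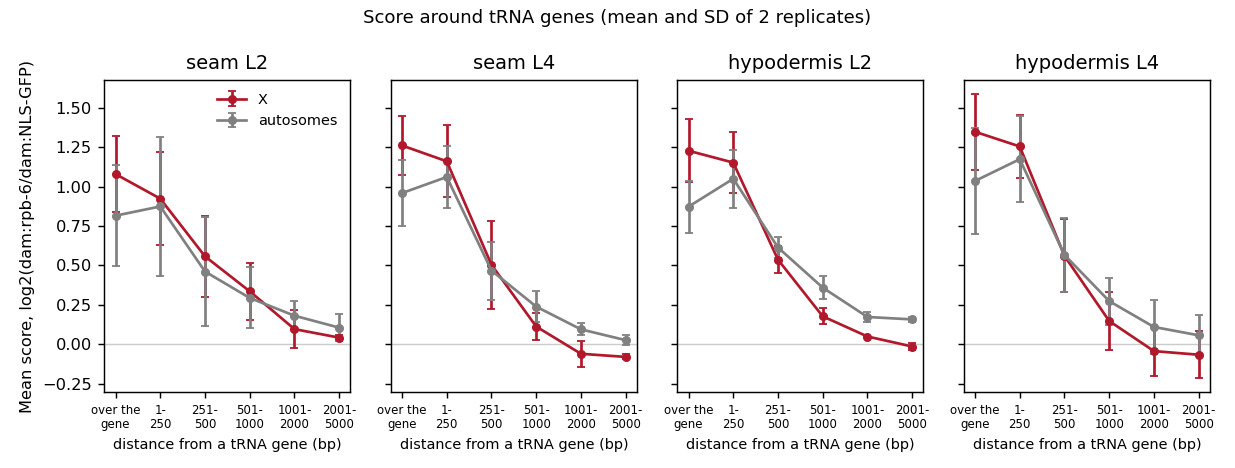
Mean score (log2 ratio, y axis) of fragments over tRNA genes and at increasing distance from the nearest one in bp (x axis), on X (red) and autosomes (grey) in each group; bars are the SD of 2 replicates. In hypodermis L2, X fragments fall from 1.23 over the gene to 0.18 at 501 to 1000 bp and -0.015 at 2001 to 5000 bp.

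The tRNA signal was local. Fragments within 250 bp of a tRNA gene averaged 1.16 ± 0.23 in seam L4 (SD, n = 2), those at 251 to 500 bp 0.50 ± 0.28, and those at 1001 to 2000 bp -0.061 ± 0.082. Other classes of non-coding RNA on X were lower. The 87 fragments over 74 miRNA genes averaged 0.28 on X and 0.26 on autosomes. The 45 fragments over 33 snoRNA genes averaged -0.075 on X against 0.52 over the autosomal ones.

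The core of the sequence motif known for recruiting the dosage compensation complex, GCGCAGGG, was searched on both strands and occurred 81 times on X, or 4.57 times per Mb against 2.82 on autosomes. It lay in 0.179% of X fragments and 0.100% of autosomal ones. The 77 X fragments holding it scored below the X mean by 0.158 on average and were lower in 7 of 8 samples (-0.221 to 0.016), whereas the autosomal ones lay -0.016 from theirs. Averaged over 1 kb on each side, the X difference was -0.054 and was above 0 in 3 of 8 samples. A match describes letters only, and the search was added after the data were seen.

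Occupancy of a gene was the length-weighted mean score of its fragments, computed for 19973 protein-coding genes, of which 2731 (13.7%) were on X. Genes with occupancy of at least 1 in both replicates were taken as high. On X they numbered 36 (1.32%) in seam L2, 103 (3.77%) in seam L4, 127 (4.65%) in hypodermis L2 and 74 (2.71%) in hypodermis L4. Over all genes the shares were 1.45%, 3.79%, 5.3% and 3.16%, so X lay near the background in seam cells and somewhat under it in hypodermis.

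The X genes that were high in all 4 groups numbered 16, or 0.586% of X genes against 0.696% of all genes. They were the genes of the cuticle collagens dpy-7, dpy-3, col-41 and col-181, the disulphide isomerase genes pdi-2 and pdi-6, the lipocalin gene lpr-4, the intermediate filament gene mua-6, the linker histone gene his-24, eef-1A.2, the nuclear receptor gene nhr-25, bus-5, F46F2.3, srxa-8, gmap-1 and C52G5.2. Collagens of the cuticle form the exoskeleton that the epidermis secretes. eef-1A.2, encoding translation elongation factor 1A, had occupancies of 2.15 and 3.41 in the seam L2 replicates, 3.76 and 2.65 in seam L4, 3.22 and 3.05 in hypodermis L2, and 3.63 and 2.83 in hypodermis L4. It has a near-identical autosomal paralogue, so its reads are uncertain in origin. pdi-2, encoding a disulphide isomerase that is also a subunit of collagen prolyl 4-hydroxylase, had 1.30 and 3.64 in seam L2, 3.86 and 3.89 in seam L4, 2.66 and 2.91 in hypodermis L2, and 3.98 and 2.31 in hypodermis L4. All 8 samples thus placed both genes above 1, with the seam L2 replicates of pdi-2 the most discordant.

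osm-11, which encodes a secreted co-ligand of Notch with a part in osmotic stress, was the top X gene with at least 5 fragments in 3 groups. Its occupancy was 0.82 and 2.58 in seam L2, 4.86 and 4.57 in seam L4, 5.22 and 4.53 in hypodermis L2, and 4.61 and 3.12 in hypodermis L4. The gene lies at X:17420211-17421582 on the minus strand and was read through 5 fragments. It was above 0 by limma in seam L4 (adjusted p = 0.024), hypodermis L2 (adjusted p = 0.016) and hypodermis L4 (adjusted p = 0.045), and not in seam L2 (adjusted p = 0.27). dpy-8, an annular furrow collagen, had 0.22 and 3.44 in seam L2, 4.15 and 4.50 in seam L4, 3.36 and 2.42 in hypodermis L2, and 3.79 and 3.08 in hypodermis L4, and passed the test in none of the groups.

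Some of the top genes were uneven between groups. lpr-3, a precuticle lipocalin gene, reached 4.13 and 3.94 in seam L4 but 2.24 and 0.90 in hypodermis L2. tatn-1, encoding tyrosine aminotransferase, had 0.69 and 1.87 in seam L2, 2.47 and 2.14 in seam L4, 4.08 and 4.07 in hypodermis L2, and 2.89 and 2.79 in hypodermis L4. col-165, a cuticle collagen gene, had 3.90 and 3.83 in hypodermis L2, and 0.58 and 0.41 in seam L4. The transthyretin-like gene ttr-30 had 3.77 and 3.01 in hypodermis L2 and 0.90 and 0.65 in hypodermis L4, and sym-1, for a leucine-rich matrix protein, had 3.22 and 3.03 in seam L4. The values of a gene in these sentences did not overlap between the groups named, which is a description, since seam L4 and hypodermis L2 differ in both cell type and stage and no contrast sets them against each other. Between the hypodermis stages, neither ttr-30 nor tatn-1 passed the test.

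The lowest X genes are given as values. phat-6, related to pharyngeal gland genes, was the lowest of the X genes with at least 5 fragments in both seam groups, at -1.50 and -1.57 in L2 and -1.48 and -2.06 in L4. asp-3, which encodes an aspartyl protease, had -2.01 and -1.03 in seam L2, -1.62 and -1.41 in seam L4, -1.87 and -1.26 in hypodermis L2 (adjusted p = 0.043), and -0.97 and -1.48 in hypodermis L4. tnt-2, a troponin T gene of muscle, had -1.25 and -1.13 in hypodermis L2 and -1.15 and -1.64 in hypodermis L4. The other lowest genes, all without a call, were C44C10.10 and F41G4.8 in seam L4, elc-2 and F08G12.3 in hypodermis L2, gei-15 and asp-4 in hypodermis L4, and M163.1 in seam L2. Low values were not shared by all groups, since asp-4, another aspartyl protease gene, had -1.17 and -1.71 in hypodermis L4 but 1.81 and 0.76 in seam L4.

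**Figure D5:**
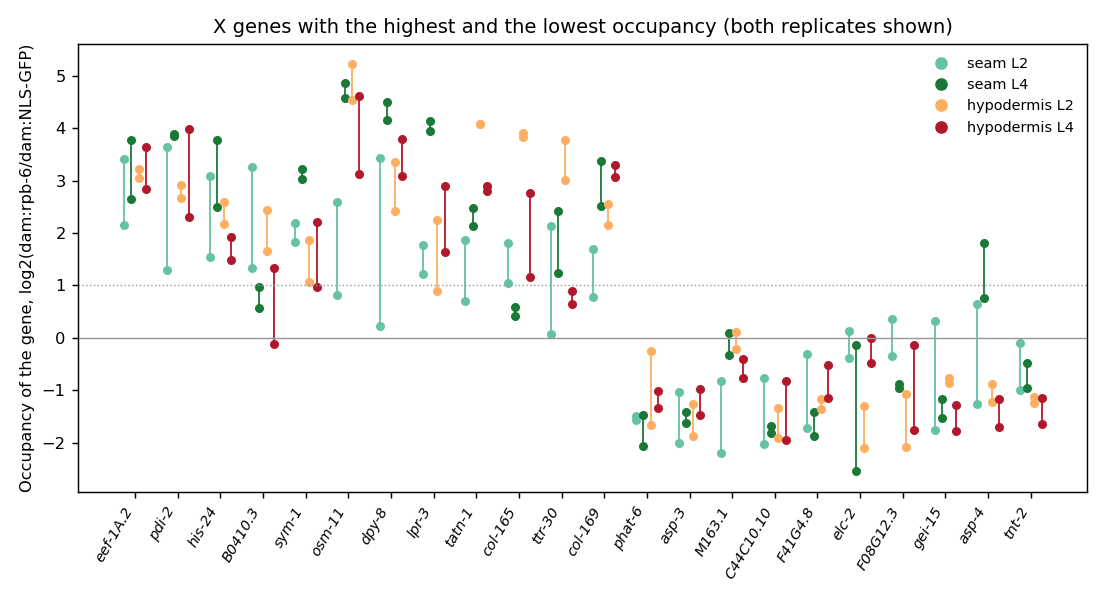
Occupancy of the X genes with the highest and the lowest group means (log2 ratio, y axis; genes on the x axis); each pair of joined points is the 2 replicates of a group, and the dotted line marks 1. osm-11 is the highest, at 5.22 and 4.53 in hypodermis L2, and the seam L2 pair of dpy-8, at 0.22 and 3.44, is the widest.

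Occupancy of each gene was tested against 0 with limma. On X, 5 genes were above 0 in seam L2, 63 in seam L4, 116 in hypodermis L2 and 30 in hypodermis L4, which is 0.183%, 2.31%, 4.25% and 1.10% of X genes. Over all genes the shares were 0.2%, 2.56%, 5.34% and 1.49%. Genes below 0 numbered 1, 38, 57 and 8 on X, or 0.0366%, 1.39%, 2.09% and 0.293% against 0.0451%, 0.771%, 1.13% and 0.145% over all genes. X thus held a smaller share of genes called above 0 than the genome in both hypodermis groups, and a larger share of those called below 0 in seam L4 and both hypodermis groups, and these directions held with both controls averaged, with the other pairing of samples and controls and with unweighted means. In seam L4 the share above 0 was near the background, and its direction turned with the other pairing (3.003% against 2.90%) and with unweighted means (3.63% against 3.42%). None of these differences in share was tested. The counts rest on single libraries, with the lone remaining sample of a group assumed to vary like the others. Seam L4 had 0 X genes above 0 without either of its own replicates, 3 without either hypodermis L2 replicate, and 51 to 66 without any other single library. Below 0, it had 0 in each of those 4 cases and 24 without either hypodermis L4 replicate. Hypodermis L2 had 0 above and 0 below without either of its own replicates, and 61 above and 18 below without either seam L4 replicate. Hypodermis L4 fell to 14 above and 2 below without either seam L2 replicate, and to at most 2 above and 0 below without any single one of the other 6 libraries. Seam L2 had 27 above and 7 below without its replicate 2, and 0 of each without any other single library.

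bus-5, a gene that acts in making the worm surface, had close replicates. Its occupancy was 1.86 and 1.55 in seam L2 (adjusted p = 0.033), 1.59 and 1.58 in seam L4 (adjusted p = 0.015), 2.58 and 2.58 in hypodermis L2 (adjusted p = 0.0061) and 2.93 and 2.57 in hypodermis L4 (adjusted p = 0.0097), all by limma. It was called above 0 in all 4 groups, and it overlaps F53B1.2.

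Of the 176 cuticle collagen genes measured, 30 were on X (17.0%). They were high in 5 of 30 cases in seam L2, 11 in seam L4, 11 in hypodermis L2 and 13 in hypodermis L4, and limma placed 0, 8, 10 and 6 of them above 0 and 0 below 0 in any group. Over all genes, 1.45%, 3.79%, 5.3% and 3.16% were high, and 0.2%, 2.56%, 5.34% and 1.49% were called above 0. Of the autosomal collagen genes, 17.8%, 41.8%, 31.5% and 46.6% were high. The X collagens had median occupancies of 0.11, 0.90, 0.070 and 1.08, against 0.066, -0.031, -0.051 and -0.051 over all X genes in the same order. The autosomal collagen medians were 0.13, 0.83, 0.30 and 1.04. dpy-7, whose altered promoter drove the hypodermis transgenes, had 1.05 and 2.92 in seam L2, 4.15 and 3.86 in seam L4, 3.26 and 2.39 in hypodermis L2, and 2.75 and 1.47 in hypodermis L4, over 3 fragments. dpy-3 was called above 0 in seam L4 (3.29 and 3.11, adjusted p = 0.015), hypodermis L2 (2.64 and 2.34, adjusted p = 0.013) and hypodermis L4 (1.81 and 2.79, adjusted p = 0.029). col-169 had 0.78 and 1.69 in seam L2 and 2.51 and 3.38 in seam L4. In hypodermis col-169 had 2.56 and 2.15 at L2 and 3.29 and 3.07 at L4. col-166 had 0.45 and 1.83 in seam L2 and 2.32 and 2.54 in seam L4. In hypodermis col-166 had 3.10 and 2.04 at L2 and 2.82 and 2.68 at L4. The collagen medians were higher at L4 in both cell types, on X and on autosomes, and no collagen difference between stages passed the test.

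The precuticle and cuticlin list had 13 X members, of which 3, 4, 2 and 2 were high in the order above and 0, 3, 1 and 0 were called above 0. Of its autosomal members, 2.44%, 19.5%, 24.4% and 14.6% were high. Among all genes, 1.45%, 3.79%, 5.3% and 3.16% were high and 0.2%, 2.56%, 5.34% and 1.49% were called above 0. lpr-4 had 3.48 and 2.62 in seam L4 (adjusted p = 0.018) and 1.72 and 1.63 in hypodermis L2 (adjusted p = 0.0315). let-4, which encodes another leucine-rich matrix protein, had 2.23 and 1.79 in seam L4 and 0.97 and 0.54 in hypodermis L2. Of the hedgehog-related and patched genes on autosomes, 9.33%, 24.0%, 26.7% and 18.7% were high. The 14 X members of that list had 0, 2, 4 and 1 high and 0, 1, 4 and 1 called above 0. Their leading member was ptr-4, a patched-related gene needed for moulting, at 2.97 and 2.57 in seam L4 (adjusted p = 0.029) and 2.47 and 1.65 in hypodermis L2 (adjusted p = 0.037). grd-1 was called in hypodermis L2 (1.23 and 1.00, adjusted p = 0.047) and wrt-4 in hypodermis L4 (1.54 and 0.96, adjusted p = 0.045). pdi-2 was the sole X member of the 17 collagen processing and peroxidase genes.

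Regulators on X were led by nhr-25, a nuclear receptor gene of epidermal development and moulting. Its occupancy was 1.66 and 2.16 in seam L2, 2.05 and 1.07 in seam L4 (adjusted p = 0.044), 2.24 and 2.12 in hypodermis L2 (adjusted p = 0.018), and 1.43 and 1.20 in hypodermis L4. elt-3, a hypodermal GATA factor gene, had 2.06 and 1.61 in hypodermis L2 against -0.05 and 1.14 in seam L2, and was called in no group. Of the 14 heterochronic genes, which time larval cell fates, 5 lie on X. kin-20 had 1.67 and 1.45 in seam L4 and 1.84 and 1.20 in hypodermis L2, the Argonaute gene alg-1 had 1.33 and 0.86 in seam L4, and lin-14, hbl-1 and daf-12 had group means between 0.13 and 0.66. No heterochronic gene was called. Among 4 TGF-beta body size genes sma-9 was called in hypodermis L2 (1.11 and 0.98, adjusted p = 0.018), and lon-2, a negative regulator of the pathway, had negative values in all 8 samples (-0.63 to -0.28). None of 4 Wnt pathway genes was called. Means were negative in all 4 groups for mom-1 (-0.36 to -0.02) and lin-18 (-0.67 to -0.13). Lists of 4 or 5 genes would hold few calls in any case, since at most 4.25% of X genes were called above 0 in a group.

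The X genes listed for sex determination and dosage compensation had medians of -0.18, -0.15, -0.22 and -0.24, against 0.066, -0.031, -0.051 and -0.051 over all X genes. Of 6 X members of that list (17 in all), none was high in any group. Between 1.32% and 4.65% of all X genes were high in a group, so a list of 6 would hold few high genes in any case. sdc-2, which targets the complex to X, had 0.24 and 0.32 in hypodermis L2 and -0.17 and -0.10 in seam L2. fox-1 had -0.62 and -0.51 in hypodermis L2 and was called below 0 there (adjusted p = 0.0498, limma). sex-1 had -0.83 and -0.94 in hypodermis L2 and -0.84 and -1.06 in seam L4 without a call. Ribosomal protein genes are rare on X, with 2 of 80, and rpl-25.1, read through 2 fragments, was above 0 by limma in seam L2 (1.62 and 1.33, adjusted p = 0.038), seam L4 (1.33 and 1.47, adjusted p = 0.018) and hypodermis L2 (0.87 and 0.81, adjusted p = 0.029). In hypodermis L4 it had 0.91 and 0.47 (adjusted p = 0.074).

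Markers of other tissues on X gave no called muscle gene and few high genes, where few X genes of any kind were high or called. The 11 X genes of body wall muscle had medians of 0.18, -0.50, -0.83 and -0.51, the 21 intestinal genes -0.052, -0.21, -0.20 and -0.16, and the 45 neuronal genes 0.11, -0.006, -0.020 and -0.078, in the order above. The muscle and intestine medians were below the median of all X genes in 3 and 4 groups, and the neuronal ones above it in 3. High genes among them were 0 for muscle and intestine in every group, and 1 neuronal gene in seam L4, the neuropeptide gene flp-11 (1.59 and 1.46). Over all X genes the high shares were 1.32%, 3.77%, 4.65% and 2.71%, so lists of this size would hold few high genes in any case. In hypodermis L2, 1 intestinal gene (pgp-10) and 1 neuronal gene (syd-2) were called above 0, and 2 intestinal genes (asp-3 and ifc-2) below 0. In that group 4.25% of all X genes were called above 0 and 2.09% below 0. None of 40 germline genes measured lies on X. In seam L2 the muscle genes act-4 (-0.12 and 1.50), mup-2 (0.56 and 2.10) and mlc-2 (-0.40 and 1.98) were higher in replicate 2 than in replicate 1. So was tnt-2 (-1.01 and -0.11), while unc-97 (0.18 and 0.39) rose less and twk-18 (-0.18 and -0.19) did not. Genic X fragments as a whole were also higher in replicate 2 (-0.002 and 0.178), a smaller rise than in act-4, mup-2 and mlc-2. Whether the rise was particular to muscle genes was not tested. The part of other cells in the seam L2 values was not tested. The seam L2 replicates also agreed least: over X genes r was 0.28, against 0.75 in seam L4, 0.82 in hypodermis L2 and 0.76 in hypodermis L4.

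No X gene differed between cell types or stages after adjustment. limma called 0 of 19973 genes in each of 5 contrasts (0%), although X genes with an unadjusted p under 0.05 numbered 202 higher and 118 lower for seam against hypodermis at L2, 88 and 49 at L4, 82 and 208 for L4 against L2 in seam cells, 27 and 77 in hypodermis, and 79 and 106 for the difference between the stage changes. As shares of X against autosomal genes, these were 7.40% against 4.47% higher and 4.32% against 5.69% lower at L2, 3.22% against 2.46% and 1.79% against 2.33% at L4, 3.003% against 3.36% and 7.62% against 5.17% for the seam stages, 0.989% against 0.922% and 2.82% against 3.56% for the hypodermis stages, and 2.89% against 3.25% and 3.88% against 2.51% for the last. Averaging each replicate over both controls, which counts shared controls again, called 147, 16, 122, 8 and 33 X genes in the same order. That was 5.38%, 0.586%, 4.47%, 0.293% and 1.21% of X genes, against 5.31%, 0.521%, 3.41%, 0.22% and 0.986% of all genes. The leading differences are given as values. bus-8B, a predicted glycosyltransferase gene of the epidermal surface, stood 3.45 ± 0.24 (limma SE) higher in seam than in hypodermis at L4, with 2.64 and 2.62 against -0.70 and -0.94 (unadjusted p = 1.86e-05, adjusted p = 0.13). It overlaps bus-8A and T23F2.2, whose signals cannot be told apart from it. mtp-18, a mitochondrial fission gene that overlaps T13C5.6, stood at -2.68 ± 0.21 in seam relative to hypodermis at L2, with -1.23 and -1.57 against 1.52 and 1.04 (adjusted p = 0.14). K02G10.15 (-2.12) and fah-1 (-1.45) followed at L2, where fah-1 encodes an enzyme of tyrosine breakdown downstream of tatn-1. cdk-4, a cell cycle kinase gene, stood 1.01 ± 0.13 higher in seam at L2, with 0.84 and 0.91 against 0.03 and -0.29, followed by unc-98 (0.94) and ZK813.5 (0.73).

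At L4, T25G12.3 (1.59) and dhs-30 (1.27) were higher in seam by the same measure, and these genes overlap, so that their signals cannot be told apart. F18E9.3 (-1.36), bus-5 (-1.16) and mct-3 (-1.17) were lower there. Between stages in seam cells, flwr-1, a gene of the Flower family, changed by 1.36 ± 0.12 from L2 to L4 (-0.69 and -0.68 to 0.69 and 0.66), F22F4.4 by 1.20 and T25G12.3 by 1.21, while ZK813.5, unc-98 and ifc-2 changed by -0.92, -0.99 and -0.56. In hypodermis the leading stage differences were F18E9.4 (-0.86), cnp-3 (-0.78), lmp-2 (-1.07), C05C9.1 (1.11), F22F4.4 (0.50) and lgc-14 (0.38). In each pair the replicates of the 2 groups did not overlap, which lends no support because these genes were chosen by their smallest unadjusted p. None passed the adjusted threshold of 0.05.

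Some high genes were high in a single cell type, given as counts without a test. On X, 11 genes (0.403%, against 0.646% of all genes) were high in both hypodermis groups and in neither seam group, among them col-180, pycr-1, gpd-3, aqp-7, mdl-1, mxl-3 and nhr-14. rpl-25.1 and bus-8B, 2 genes (0.0732%, against 0.105% of all genes), were high in both seam groups and in neither hypodermis group, where rpl-25.1 lay just under 1 in hypodermis L2. Both X shares were under those of all genes, but they rest on 11 and 2 X genes and the differences were not tested. gpd-3, a glyceraldehyde-3-phosphate dehydrogenase gene with a near-identical neighbour, had 2.15 and 2.17 in hypodermis L2 and 0.18 and 0.39 in seam L4. col-180 had 2.86 and 2.57 in hypodermis L4 and 0.33 and 0.38 in seam L2. Both lists are of genes whose values fell on each side of 1 and do not show that the cell types differ.

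Domains were read in 10 kb windows, with adjacent high windows joined. High windows, at least 1 in both replicates, made up 0.226% of 1769 X windows in seam L2, 1.87% in seam L4, 2.83% in hypodermis L2 and 0.791% in hypodermis L4. Over all 10000 windows the shares were 0.39%, 2.23%, 3.61% and 1.68%. The X shares were lower in all 4 groups, with only 4 high X windows in seam L2, and the differences were not tested. X also has fewer protein-coding genes per Mb, at 154 against 209 on autosomes. The high windows on X joined into 4, 31, 47 and 14 domains, of which 0, 2, 3 and 0 spanned more than a single window. The longest was 20 kb, against 30 kb on autosomes. On autosomes 2 of 33, 27 of 161, 36 of 271 and 20 of 134 domains spanned more than a single window. Per Mb, X had 0.226, 1.75, 2.65 and 0.790 domains in the order of the groups above, against 0.400, 1.95, 3.28 and 1.62 on autosomes.

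The strongest windows lay over a few of the genes above. The window over eef-1A.2, with sek-1 and sul-3 (X:7820001-7830000), was among the 3 highest in 3 groups, with means of 1.61 in seam L2, 1.903 in seam L4, 1.86 in hypodermis L2 and 1.86 in hypodermis L4. The window of nhr-25 and npr-10 (X:13010001-13020000) led seam L2 at 1.69 and 1.66, and that of alg-1 came next but one at 0.76 and 1.79. In seam L4 the window of pdi-2 (X:4520001-4530000) led at 2.17 and 2.26, followed by the lipocalin cluster lpr-4, lpr-5 and lpr-6 (X:11060001-11070000) at 2.21 and 1.92 and the window of gln-1 and ptr-4 at 2.07 and 2.04. The lipocalin window was at 0.88, 1.04 and 0.81 in seam L2, hypodermis L2 and hypodermis L4. osm-11 with pbo-6 (X:17420001-17430000) led hypodermis L2 at 2.02 and 1.88, ahead of sams-1 at 2.00 and 1.78, and the window of K01A12.3 was among the 3 highest in hypodermis L4 at 1.61 and 1.51. No X window was called different by limma. Over all windows the calls were 0 of 10000 for seam against hypodermis at L2, 0.01% at L4, 0.01% for the stage change in seam cells and 0% for the other contrasts.

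The joined domains covered ajm-1, a gene of the epithelial junction, and the lpr-3 to lpr-6 cluster in seam L4, and fln-2, nhr-25 and the region of F46F2.3 and kin-20 in hypodermis L2. Each spanned 20 kb, and their mean scores were 1.25 and 1.76 in seam L4 and 1.398, 1.34 and 1.28 in hypodermis L2.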

How the data were processed

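TaDa profiles of 8 dam:rpb-6 samples were used, each against a dam:NLS-GFP control. The authors aligned reads with Bowtie2 (2.3.4, SAMtools 1.9 per the submitters' processing notes) and ran damidseq_pipeline to obtain the deposited normalised log2(dam:rpb-6/dam:NLS-GFP) score per GATC fragment of WBcel235. All 269035 nuclear fragments began and ended at GATC in the reference. The deposited averaged profiles and gene lists were not used. Because scores are normalised within a profile, levels are relative. The profiles hold no read counts, so the reads behind a score are unknown. The seam L2 profile of replicate 2 was written with at most 4 significant digits (up to 15 in the others), and its fragments start 1 base later. Replicate n was set against control n, except in seam L4, where the pairs were crossed so as to leave out the profile described above. A fragment was genic, exonic or intronic by its midpoint in Ensembl protein-coding genes.

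Gene and 10 kb window values (at least 5 fragments per window) were fitted over all genes or windows with limma (3.58.1, R 4.3.3) on group means, with Benjamini-Hochberg adjustment over the whole table, and the fit was tested on simulated data. Chromosome-level differences were tested by exact sign flips over 8 samples or exact permutation of 4 against 4. X genes were named by rule: the 5 highest and 3 lowest of each group and, as none was called, the 3 with the smallest unadjusted p in each direction of each contrast (all with at least 5 fragments), up to 6 members of each list, and the genes of the 3 highest windows of each group. Other genes named were chosen after their values were seen. The members, lists and tests were chosen with earlier results of these data known. Replicate numbers pair L2 with L4 within a cell type because both stages came from the same population. The replicate differences correlated at -0.12 between stages in seam cells and 0.22 in hypodermis. Alternatives tried were other pairings of samples and controls, weighting, filters, scaling, window sizes, thresholds and leaving out each sample.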

Additional observations from a re-analysis of the deposited data

Results flagged for a closer look

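Among the 99 named X genes, 10 moved in opposite directions between L2 and L4 in the 2 cell types, with no overlap between the replicates of the stages in either. In 8 of them occupancy was higher at L4 in seam cells and lower at L4 in hypodermis. The L4 minus L2 values in seam cells and hypodermis were 1.02 and -1.23 for tatn-1, 1.26 and -0.89 for mtp-18, 1.31 and -0.41 for fah-1, 0.57 and -0.55 for K02G10.15, 1.23 and -0.73 for bus-8B, 1.21 and -0.24 for T25G12.3, 1.24 and -0.32 for lpr-4, and 1.39 and -0.54 for M163.1. For sex-1 they were -0.64 and 0.50, and for xol-1, the switch gene of male development, -0.37 and 0.14. The difference between the stage changes was tested with limma's interaction term over all genes, where the adjusted p of these 10 genes lay between 0.71 and 0.86, so none passed. The pattern up in seam and down in hypodermis was met by 2.05% of X genes and 2.17% of all genes, and the opposite one by 2.64% and 2.25%. Genes such as mtp-18, fah-1, K02G10.15, bus-8B and T25G12.3 were named because they led contrasts between groups. The 10 of 99 is therefore not a share to set against these.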

How the results depend on the processing

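The X shortfall kept its sign under every alternative run. It lost its call with medians (-0.0087, exact p = 0.25), with populations as units (-0.102, exact p = 0.125, the smallest 4 units can give) and in fragments of 1000 bp or more (-0.016, a class chosen after seeing the data, like the other classes, single autosomes and tRNA genes), and ranged from -0.108 to -0.096 when each sample was left out. The wider X spread turned to -0.0044 without scores at 0. With medians, genic minus intergenic on X was 0.0086 and its difference from autosomes turned to 0.0042. As a replicate block, with L4 paired to L2 by population, the stage difference in the X level was -0.030 (exact p = 0.38, smallest 0.125), and the block gave 0 X genes and 0 X windows in the stage contrasts, as without it. As deposited, with the left-out profile in place, that stage difference was 0.007.

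Counts of X genes called above or below 0 moved most. Given for seam L2, seam L4, hypodermis L2 and hypodermis L4, averaging over both controls called 69, 188, 293 and 153 above and 201, 576, 492 and 386 below. As deposited the counts were 0, 0, 45 and 1 above and 0, 0, 11 and 0 below. The other pairing gave 0 in seam L2 and 59 in hypodermis L4 above, and 0 in seam L2, 69 in seam L4 and 26 in hypodermis L4 below. Unweighted means gave 16, 99 and 51 above in seam L2, seam L4 and hypodermis L4, and 5, 63, 88 and 28 below. Centring on autosomal genes gave 47 above in hypodermis L4, and 2, 63 and 15 below in seam L2, seam L4 and hypodermis L4. Dividing by the autosomal SD gave 70 above and 39 below in hypodermis L4, and 24 below in seam L4. With at least 5 fragments per gene, seam L2 had 2 above and 2 below and hypodermis L4 had 13 below. Leaving out a sample gave 0 to 27, 0 to 66, 0 to 118 and 0 to 14 above, and 0 to 7, 0 to 34, 0 to 66 and 0 to 2 below.

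Between groups, both controls called 147 and 16 X genes for seam against hypodermis at L2 and L4, 122 and 8 for L4 against L2 in seam and hypodermis, and 33 for the interaction, and 65 and 8 X windows at L2 and for the seam stages. Unweighted means called 2 genes at L2.

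The share of high X windows, in the same order, was 3.79%, 6.95%, 10.1% and 4.30% at a threshold of 0.5, and 0%, 0.113%, 0% and 0% at 2. It was 1.02%, 2.85%, 4.24% and 1.86% with 5 kb windows, 0.113%, 0.564%, 0.677% and 0.226% with 20 kb windows, and 0% in seam L4 as deposited. The share of high X genes was 4.10%, 8.17%, 9.78% and 5.86% at 0.5, 0.110%, 0.989%, 1.10% and 0.586% at 2, and 0.0366% in seam L4 as deposited. For the 56 values of single genes, 678 alternatives stayed on the same side of the threshold, called or not, while 67 lost a call, 51 gained one and 0 turned the direction. The causes of these changes were not tested. Each group had 2 replicates and the reads behind a score are unknown, so a score near 0 may mean little signal or few reads.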
